A study of Mus musculus with 37 samples.

Results

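The 10 genes described here are markers of T cells and natural killer (NK) cells: Gzma, Gzmb, Nkg7, Prf1, Cd3e, Cd3g, Cd8a, Klrb1c, Ccl5 and Ncr1. They were taken by symbol from the deposited liver RNA-seq table of 55487 genes, and all 10 were present. A filter on low counts kept 15564 genes for testing, among them 9 of the 10, while Ncr1 was too low to be tested.

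Cytotoxic T cells and NK cells kill by releasing granules in which perforin, encoded by Prf1, opens the way into the target cell for granzymes, the proteases encoded by Gzma and Gzmb. T cells recognise antigen through a receptor that signals through the CD3 chains, while NK cells are set off by germline-encoded receptors. The liver holds resident populations of both, and NK cells are known to influence how the liver regrows after part of it is removed.

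The study measured livers of wild-type (WT) mice and of Nox4 knockout (KO) mice, which lack an NADPH oxidase that makes hydrogen peroxide, after partial hepatectomy or a sham operation. Each genotype contributed 5 livers after the sham operation and 3 at 6 h after hepatectomy. At 24 h there were 3 WT and 4 KO livers, at 48 h 4 of each genotype and at 7 d 3 of each, so that 18 WT and 19 KO libraries, 37 in all, fell into 10 groups. The sham livers of a genotype formed 1 group although they were taken at mixed times, which for WT replicates 1 to 5 were 7 d, 48 h, 24 h, 48 h and 6 h and for KO replicates 1 to 5 were 24 h, 48 h, 48 h, 72 h and 6 h. The labels name 23 male and 14 female mice, and all livers taken 6 h after hepatectomy were male. They give no strain, age or allele design and do not say that the livers of a group were from separate animals, so the p-values measure the spread between these libraries, some of which may be technical. In such bulk tissue, fewer cells of a type and less RNA per cell cannot be told apart.

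Total counts ranged from 26232544 to 48827025 per library, and the share of mitochondrial transcripts from 3.17% to 8.93%. Nox4 lay between 0.778 and 23.5 CPM (counts scaled to a common library size) in the WT libraries and between 0 and 4.98 CPM in the KO libraries, so the ranges overlapped. It was lower in KO by 2.82 on the log2 scale (SE 0.28, edgeR adjusted p = 4.27e-08, n = 19 and 18) in the average over stages, and higher in males by 3.58. The 10 hepatocyte markers summed to at least 42115 CPM in every library. At least 1 read was found in some library for every gene of the cell type lists used here. From the summed levels, 3 livers were set apart by choice after the data were seen. WT 24 h replicate 3 had the lowest hepatocyte sum and the 8.93% mitochondrial share. WT 48 h replicate 3 had a monocyte and dendritic cell sum of 55.6 CPM, against at most 6.56 CPM in the other 3 livers of its group. KO 24 h replicate 1 had a Kupffer cell sum of 434 CPM, against at most 219 CPM in the other 3. Its sum lay within the WT 24 h range of 314 to 629 CPM, and those of the other 3 lay below that range. Counts that change without these 3 livers are given beside the results. Other livers also stood out and were kept in that fit. Among them, WT sham replicate 5 had a Kupffer cell sum of 225 CPM, against 552 to 784 CPM in the rest of its group. KO 48 h replicate 4 had 703 CPM, against 163 to 384 CPM in the rest of its group.

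Promoter sequences are shown for 4 genes of the lytic granule, 3 whose levels moved together over the libraries (Gzma, Gzmb and Nkg7) and Prf1, which did not follow them. Each window spans the annotated start of the gene in the RefSeq table of build GRCm38.p6, in which 9 of the 10 genes had a window. Gene positions given further below come from the GENCODE annotation instead. For Gzmb the RefSeq window lies wholly upstream of the GENCODE span. The window of Gzma lies at chr13:113100932-113101231 and that of Gzmb at chr14:56262285-56262584, both on the minus strand, and those of Nkg7 and Prf1 lie at chr7:43436888-43437187 and chr10:61297586-61297885, both on the plus strand. Capitals mark matches on either strand to the T-box letters TCACAC, the RUNX site TGTGGT, the ETS core GGAAG and the AP-1 site TGANTCA, which are letters bound by factor families that act in lymphocytes.
Gzma: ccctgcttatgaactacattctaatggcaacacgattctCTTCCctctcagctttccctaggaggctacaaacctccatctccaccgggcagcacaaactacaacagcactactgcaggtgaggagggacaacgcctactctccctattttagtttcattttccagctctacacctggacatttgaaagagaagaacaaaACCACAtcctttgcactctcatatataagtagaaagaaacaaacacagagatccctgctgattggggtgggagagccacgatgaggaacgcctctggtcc
Gzmb: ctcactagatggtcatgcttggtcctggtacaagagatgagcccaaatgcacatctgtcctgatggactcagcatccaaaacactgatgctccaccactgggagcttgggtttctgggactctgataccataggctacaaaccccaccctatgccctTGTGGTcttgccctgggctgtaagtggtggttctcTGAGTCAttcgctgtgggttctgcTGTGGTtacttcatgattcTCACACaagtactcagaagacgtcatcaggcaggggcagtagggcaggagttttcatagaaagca
Nkg7: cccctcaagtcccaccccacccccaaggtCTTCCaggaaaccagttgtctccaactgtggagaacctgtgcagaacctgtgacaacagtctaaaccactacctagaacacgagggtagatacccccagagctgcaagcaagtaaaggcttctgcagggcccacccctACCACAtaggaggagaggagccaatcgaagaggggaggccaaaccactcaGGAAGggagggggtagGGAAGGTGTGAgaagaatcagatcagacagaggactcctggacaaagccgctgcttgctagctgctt
Prf1: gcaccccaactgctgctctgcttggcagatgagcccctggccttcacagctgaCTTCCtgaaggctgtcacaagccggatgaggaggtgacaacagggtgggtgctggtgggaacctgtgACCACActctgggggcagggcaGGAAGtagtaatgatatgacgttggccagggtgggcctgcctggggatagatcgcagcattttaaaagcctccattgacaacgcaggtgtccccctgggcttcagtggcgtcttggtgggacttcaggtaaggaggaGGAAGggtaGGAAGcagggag

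Of all 32851 promoter windows in that table, 14.5% held the T-box letters, 16.8% the RUNX letters, 71.4% the ETS letters and 7.81% the AP-1 letters. The window of Gzmb held 1 T-box, 2 RUNX and 1 AP-1 match and no ETS match. That of Nkg7 held 1 T-box, 1 RUNX and 3 ETS matches, and 1 ETS match directly adjoined the T-box match. Gzma held 1 RUNX and 1 ETS match, and Prf1 held 1 RUNX and 4 ETS matches. A RUNX match was thus in all 4 windows, and a T-box match in the windows of Gzmb and Nkg7 but not of Gzma or Prf1. Among the other genes with a window, Ncr1 held 1 T-box and 2 RUNX matches, Klrb1c 1 RUNX and 5 ETS matches, Cd3e 3 and Cd8a 2 ETS matches, and Cd3g none. A match describes the letters only and shows no binding.

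All 10 genes were rare transcripts in whole liver. The CPM values here are divided by library size as scaled by TMM, a method that adjusts library sizes for differences in composition, and a count of 3 was worth 0.0550 to 0.150 CPM. Ccl5 was the most abundant, with 1253 counts over the 37 libraries, a median of 26 per library and a mean of 0.967 CPM. Nkg7 followed with 613 counts, Cd3e with 583, Gzma with 484, Cd3g with 449, Klrb1c with 355, Gzmb with 353, Cd8a with 218 and Prf1 with 207. Ncr1 had 61 counts in all and none in 14 of the 37 libraries. Per kilobase of exon, Ccl5 (1.01 CPM per kb) stood above Nkg7 (0.497), Gzma (0.366) and Gzmb (0.186). Cd3e (0.109), Cd3g (0.102) and Klrb1c (0.0955) lay close together, with Prf1 (0.0597), Cd8a (0.0444) and Ncr1 (0.0280) below them. At such depth a single library often rested on fewer than 10 counts, and the SEs of comparisons between 2 groups were mostly above 0.5 on the log2 scale.

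**Figure D1:**
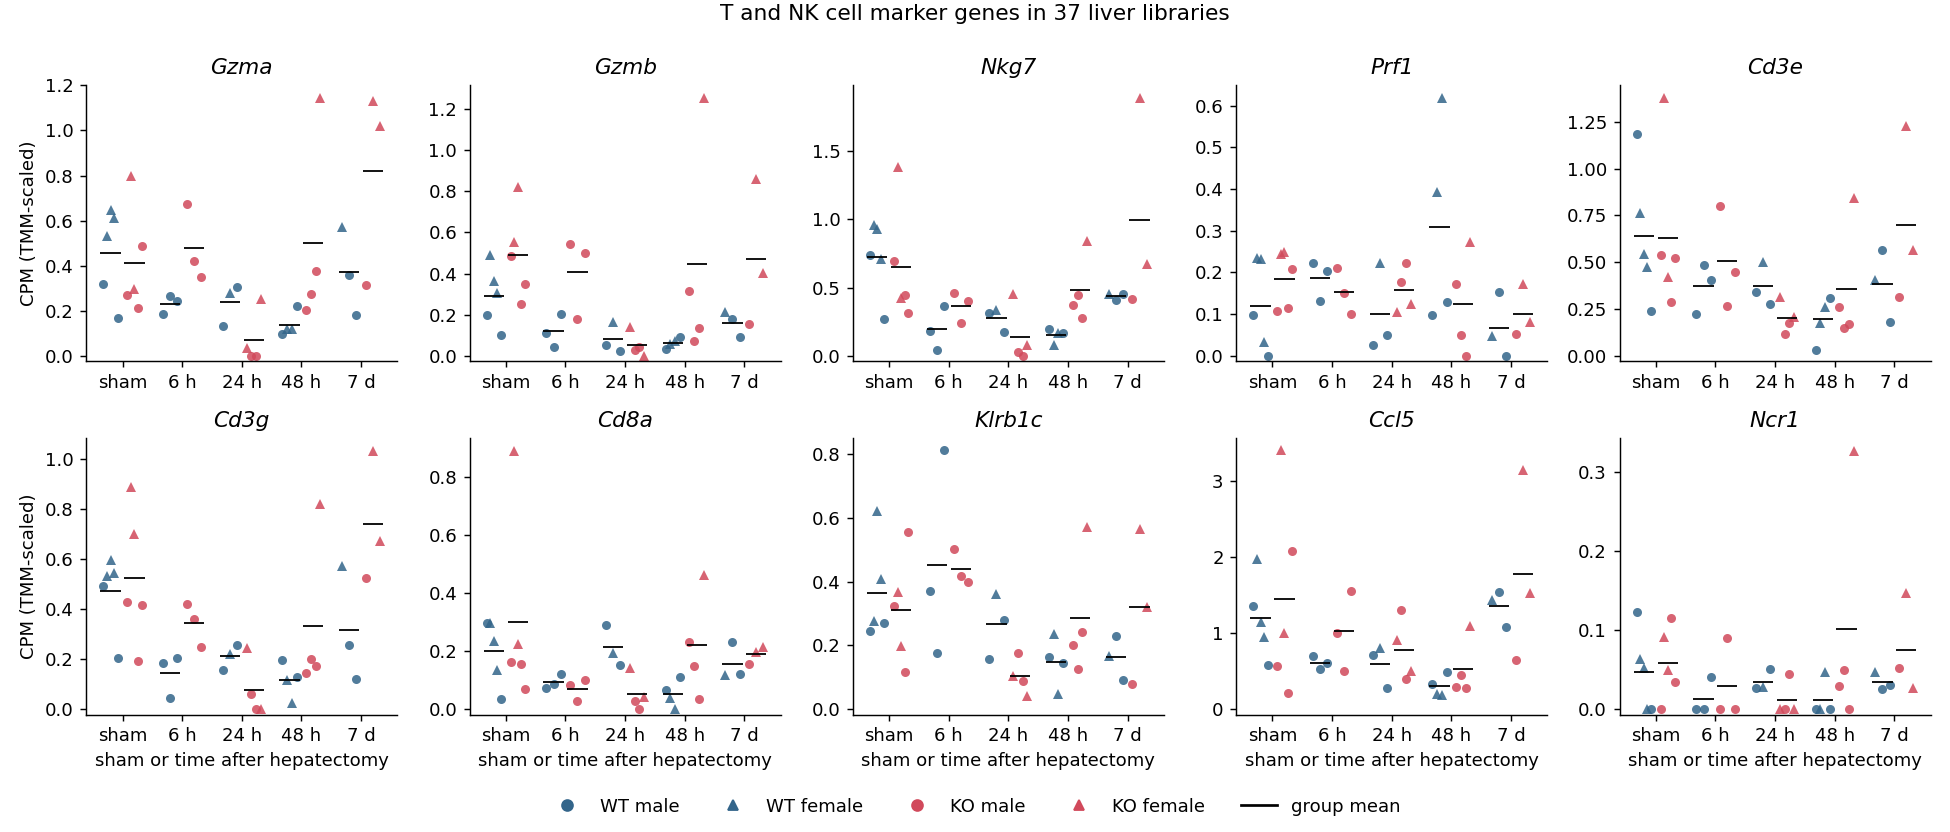
Level of each of the 10 genes in every library, in CPM scaled by TMM (y axis, a separate scale for each gene), by sham operation or time after hepatectomy (x axis). Circles are males and triangles females, blue is WT and red is KO, and black bars are group means. KO 24 h livers lie low for most genes, the highest KO 48 h point of most panels is the single female of that group, and Prf1 is highest in 2 WT 48 h females.

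The clearest change was a fall at 24 h in the KO livers. Of the 9 genes tested, 6 were lower than in KO sham livers by edgeR with Benjamini-Hochberg adjustment over all genes (Gzma, Gzmb, Nkg7, Cd3e, Cd3g and Cd8a), where 12% of all genes tested were called lower. All 9 changes were below 0, with a median of -2.36 on the log2 scale, beside -0.01 for all genes tested. Without KO sham replicate 2, which was high for several of these genes, the median was -1.56. The change of 1 gene lay above 0 without KO sham replicate 5 or without KO 24 h replicate 1 or 4.

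Gzmb encodes granzyme B, a protease that cuts after aspartate and starts apoptosis in target cells, and lies at chr14:56258838-56262260 on GRCm38. Its KO sham values, replicates 1 to 5, were 0.483, 0.552, 0.823, 0.251 and 0.347 CPM. In KO 24 h replicates 1 to 4 it stood at 0.141, 0.0295, 0.0444 and 0 CPM. Every 24 h liver lay below every sham liver, and the change was -3.27 (SE 0.65, edgeR adjusted p = 0.000604, n = 4 and 5). Gzmb was the only one of the 9 genes whose ranges did not overlap in this comparison, a property shared by 4.70% of all genes in that direction.

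Gzma encodes granzyme A, a tryptase of the same granules (chr13:113093825-113100981). Its levels were 0.269, 0.797, 0.299, 0.213 and 0.486 CPM in KO sham replicates 1 to 5 and 0.0352, 0, 0 and 0.251 CPM in KO 24 h replicates 1 to 4. Neither male liver at 24 h held a Gzma read, while the female replicate 4 overlapped the sham range. The change was -2.82 (SE 0.63, edgeR adjusted p = 0.00159).

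Nkg7, a granule membrane protein of NK and cytotoxic T cells (chr7:43437073-43438249), ranged from 0.313 to 1.38 CPM in KO sham and stood at 0.457, 0.0295, 0 and 0.0836 CPM at 24 h. The first of these, replicate 1, reached into the sham range and the other 3 lay below it. Nkg7 changed by -2.36 (SE 0.62, edgeR adjusted p = 0.0054). Prf1 (chr10:61297833-61304680) did not share the fall. It stood at 0.107, 0.245, 0.249, 0.116 and 0.208 CPM in KO sham livers and at 0.105, 0.177, 0.222 and 0.125 CPM at 24 h, a change of -0.15 (edgeR adjusted p = 0.89) with nearly the same range in both groups.

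Among the T cell genes, Cd3g and Cd3e encode the gamma and epsilon chains of CD3, and lie on the same chromosome at chr9:44969572-44980431 and chr9:44998740-45009627. Cd3g stood at 0.430, 0.889, 0.698, 0.193 and 0.417 CPM in KO sham and at 0.246, 0.0591, 0 and 0 CPM at 24 h. Its change was -2.74 (SE 0.65, edgeR adjusted p = 0.00271), and only replicate 1 overlapped the sham range. Cd3e fell less, by 1.65 on the log2 scale (SE 0.57, edgeR adjusted p = 0.0294), from 0.290 to 1.38 CPM in sham livers to 0.118 to 0.316 CPM at 24 h, with ranges that overlapped. A part of Cd3e, 3.31% of its exonic bases, is shared with the antisense gene Gm48719, and the strand setting of the counting is not given, so its counts are less certain.

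Cd8a encodes the alpha chain of the CD8 co-receptor of cytotoxic T cells (chr6:71373427-71379173). It ranged from 0.0695 to 0.889 CPM in KO sham and from 0 to 0.141 CPM at 24 h, and changed by -2.37 (SE 0.78, edgeR adjusted p = 0.0229). Its highest sham value came from replicate 2. Without that liver the change in Cd8a was -1.56 and in Cd3e -1.3, and neither passed the threshold. Both also lost their call without KO 24 h replicate 2, 3 or 4, with Cd8a at -2.26, -2.09 and -2.20 and Cd3e at -1.54, -1.71 and -1.56, and in males alone.

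Klrb1c, the NK receptor NK1.1 (chr6:128778485-128789215), changed by -1.52 (SE 0.59) and missed the threshold (edgeR adjusted p = 0.054). Its 24 h levels were 0.105, 0.177, 0.0888 and 0.0418 CPM against 0.116 to 0.556 CPM in sham livers. It shares 13.9% of its exonic bases with Gm44511 on the same strand, so reads could have been split between them. Ncr1, the NK receptor NKp46 (chr7:4337724-4345164), was found in 1 of 4 KO 24 h livers, at a single count. Ccl5, a chemokine made by activated T and NK cells that attracts other leukocytes (chr11:83525778-83530518), stood at 0.914, 1.3, 0.400 and 0.502 CPM at 24 h against 0.213 to 3.40 CPM in sham livers. Its change of -0.79 did not pass the test (edgeR adjusted p = 0.29).

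The number of genes called in this comparison lay between 4 and 7 when each library was left out, and was 6 without the 3 livers set apart above. Gzmb, Cd3g and Gzma kept their call in every alternative in which they were tested, whereas in a fit of the 2 groups alone only 5 of the genes passed the count filter and 2 were called. No share of all genes called is given for these alternative fits, so their counts have no background beside them.

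Other gene lists moved in the same livers, and their part in the fall was not tested. Of 12 genes of all leukocytes, 6 were lower and none higher, with a median of -0.75, and their sum was 81.4 to 111 CPM at 24 h against 110 to 163 CPM in sham livers. Ptprc, which encodes the leukocyte antigen CD45, changed by -1.57 (SE 0.61, edgeR adjusted p = 0.0531). The 10 markers amounted to 1.77% ± 0.56 (SD, n = 4) of the pan-leukocyte sum at 24 h and to 3.51% ± 1.92 (SD, n = 5) in sham livers, with overlapping ranges. Of 12 Kupffer cell genes 10 were lower, among them Clec4f (-1.67), Csf1r (-1.65) and C1qc (-1.09), and their sum was 144 to 434 CPM against 391 to 598 CPM. Of 12 sinusoidal endothelial genes 8 were lower and 1 higher, with Clec4g at -1.95, Dnase1l3 at -1.94 and Kdr at -2.17, and their sums did not overlap (82.7 to 124 CPM against 152 to 267 CPM). Of 12 B cell genes 5 were lower, with a sum of 0.915 to 3.72 CPM against 2.40 to 9.23 CPM. None of the 11 neutrophil genes tested was called in either direction, nor any of the 10 monocyte and dendritic cell genes, and of 10 hepatocyte genes only Tat was called, higher by 1.63.

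The lists around the markers themselves were mixed, and beside the 12% of all genes called lower, 15.9% were called higher. Of 16 tested genes of the T cell receptor and its signalling, 3 were lower and 1 higher, with a median of -1.26. The lower ones were Trac (-2.13) and Trbc2 (-2.08), the constant regions of the receptor's alpha and beta chains, and Lcp2 (-1.25), an adaptor of its signalling. Only 8 of 26 NK receptor genes were abundant enough to test, and 2 were lower, Tyrobp (-1.18), an adaptor that myeloid cells also use, and Itga1 (-0.58), an integrin. Among 10 other effector genes 3 were lower, with Ctsc (-1.16), the protease that activates granzymes, and 2 were higher. The higher 2 were Srgn (2.01), the granule proteoglycan, and Serpinb6b (2.44), a protease inhibitor.

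Receptors for lymphocyte cytokines gave 3 lower and 2 higher of 10. The lower ones included Il2rg (-1.31) and Il2rb (-1.45), the chains shared by the receptors for interleukins 2 and 15, and the higher ones included Ifngr1 (0.63). Of 14 homing genes 6 were lower and none higher, with a median of -1.16. Of 14 lymphoid transcription factor genes none was lower and 3 were higher, Runx1 (5.59), Tcf7 (0.96) and Id2 (1.05). In the KO 24 h livers the whole list of these factors summed to 160 to 541 CPM. The list of other effector genes summed to 462 to 744 CPM, against 0.977 to 2.46 CPM for the 10 markers. Which cells the transcripts of these lists came from was not tested. Of 13 chemokine and cytokine ligands 2 were lower.

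**Figure D2:**
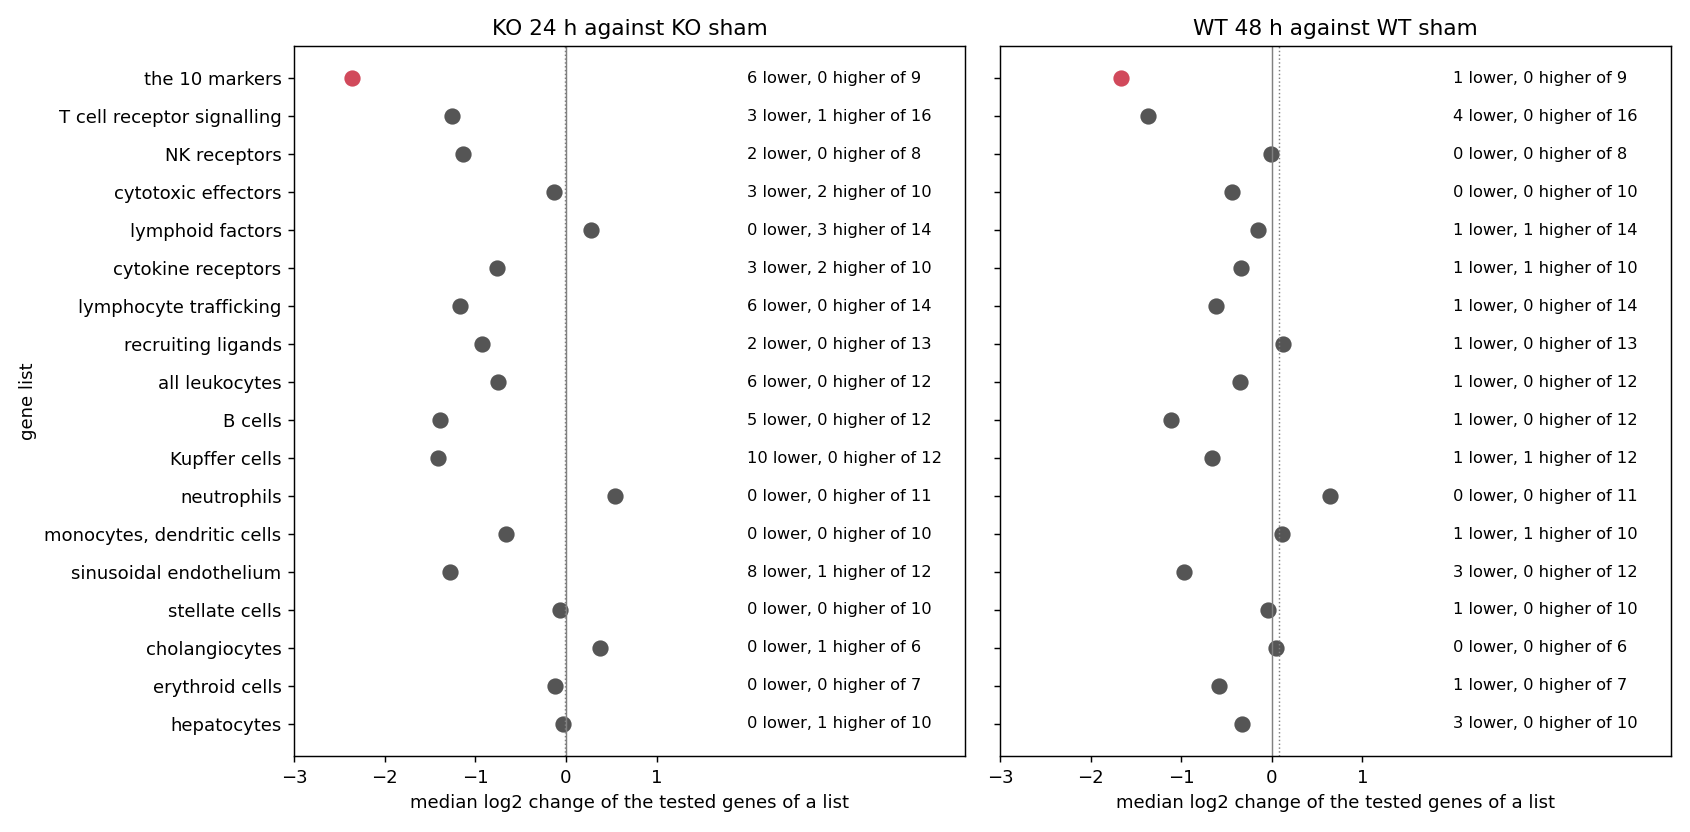
Median log2 change of the tested genes of each list (x axis, log2 scale) in KO 24 h livers against KO sham and in WT 48 h livers against WT sham, with the number called lower and higher beside it. Red is the list of 10 markers, grey the other lists, and the dotted line the median of all genes. The marker list has a median of -2.36 and -1.66, and neutrophil genes lie above 0 in both comparisons.

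In WT livers the lowest levels came later, at 48 h. There 8 of the 9 changes from WT sham were below 0, with a median of -1.66 beside 0.07 for all genes, and 8 had an unadjusted p under 0.05. The median was -2.31 without WT 48 h replicate 4 and -1.15 in males alone, where 8 genes were tested. Only Nkg7 passed the threshold, where 3.62% of all genes were called lower. DESeq2 called 6 of the 9, where it called 5.80% of all genes lower. The number lay between 0 and 5 when each library was left out, with 0 without WT sham replicate 1 and without WT 48 h replicate 2 or 3. For the fits with a library left out, no share of all genes called is given beside these numbers.

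Nkg7 stood at 0.740, 0.956, 0.933, 0.713 and 0.271 CPM in WT sham replicates 1 to 5 and at 0.196, 0.0784, 0.166 and 0.165 CPM in WT 48 h replicates 1 to 4. All 4 livers at 48 h lay below all 5 sham livers, and the change was -2.05 (SE 0.59, edgeR adjusted p = 0.0261). It was -1.82 without WT sham replicate 1, -1.72 and -1.94 without WT 48 h replicates 2 and 3, and -1.50 in males alone (edgeR adjusted p = 0.483), and it was not called in any of these 4. Gzmb stood at 0.197, 0.489, 0.363, 0.305 and 0.102 CPM in WT sham and at 0.0327, 0.0588, 0.0714 and 0.0916 CPM at 48 h. Its groups did not overlap either, with a change of -1.83 (SE 0.60) that missed the threshold (edgeR adjusted p = 0.0536). Gzma stood at 0.321, 0.531, 0.648, 0.611 and 0.170 CPM in WT sham and at 0.0980, 0.118, 0.119 and 0.220 CPM at 48 h, overlapping through sham replicate 5 (-1.35, edgeR adjusted p = 0.121).

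Among the other genes, Ccl5 changed by -1.81 (SE 0.59, edgeR adjusted p = 0.0524), from 0.577 to 1.98 CPM in WT sham to 0.190 to 0.495 CPM at 48 h, without overlap. Cd3e changed by -1.66 (edgeR adjusted p = 0.0535), Cd3g by -1.79 (0.0605), Cd8a by -1.66 (0.166) and Klrb1c by -1.18 (0.189). The ranges of 5 of the 9 genes, Gzmb, Nkg7, Cd3g, Klrb1c and Ccl5, lay below WT sham without overlap, a property of 3.94% of all genes.

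Prf1 went the other way from the rest. Its WT sham values were 0.0986, 0.234, 0.233, 0.0339 and 0 CPM, and its WT 48 h values were 0.0980, 0.392, 0.618 and 0.128 CPM. The 2 highest values of all 37 libraries came from the 2 females among the WT 48 h livers, and the change of 1.3 (SE 0.65) did not pass the test (edgeR adjusted p = 0.232). Prf1 was itself close to the limit of the count filter and was not tested without WT 48 h replicate 2 or 3, in males alone or in the compared groups alone.

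Of the other lists at 48 h in WT, 4 of 16 T cell receptor genes were lower, with Trac at -2.28, Trbc2 at -1.94 and Cd6, a co-receptor of T cells, at -2.17. None of the 8 NK receptor genes was called. Of the pan-leukocyte genes 1 of 12 was lower, and their sum was 87.1 to 137 CPM against 107 to 199 CPM in WT sham. Ptprc changed by -0.32. The 10 markers made up 1.31% ± 0.12 (SD, n = 4) of the pan-leukocyte sum at 48 h and 2.58% ± 0.54 (SD, n = 5) in WT sham, ranges of 1.13% to 1.39% and 1.74% to 3.08% that did not overlap. Of the Kupffer genes 1 was lower and 1 higher, 1 of 12 B cell genes was lower, and 3 of 12 endothelial genes were lower, where 4.68% of all genes were called higher. Of 10 hepatocyte genes 3 were lower, Cyp2e1 (-1.82), a cytochrome P450, and Ass1 (-1.40) and Cps1 (-1.05), both enzymes of the urea cycle. The part of these lists in the marker levels was not tested.

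All comparisons with sham within a genotype share the same sham livers. At the other stages no marker passed the threshold by edgeR. In WT livers 7.86% of all genes were called in either direction at 6 h, 0.925% at 24 h and 0% at 7 d, and the number of markers with an unadjusted p under 0.05 was 0, 1 and 0. In KO livers 6.62% of all genes were called at 6 h, 3% at 48 h and 0% at 7 d, with 0, 1 and 0 markers at an unadjusted p under 0.05. The single markers were Gzmb at 24 h in WT (-1.54) and Ccl5 at 48 h in KO (-1.37). By 7 d the median change was -0.39 in WT and -0.05 in KO. In order of group means the lowest group was KO 24 h for Gzma, Gzmb, Nkg7, Cd3g, Cd8a, Klrb1c and Ncr1 and WT 48 h for Cd3e and Ccl5. KO 7 d was highest for Gzma, Nkg7, Cd3e, Cd3g and Ccl5. For every gene, all 9 pairs of groups next to each other in that order had overlapping ranges.

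**Figure D3:**
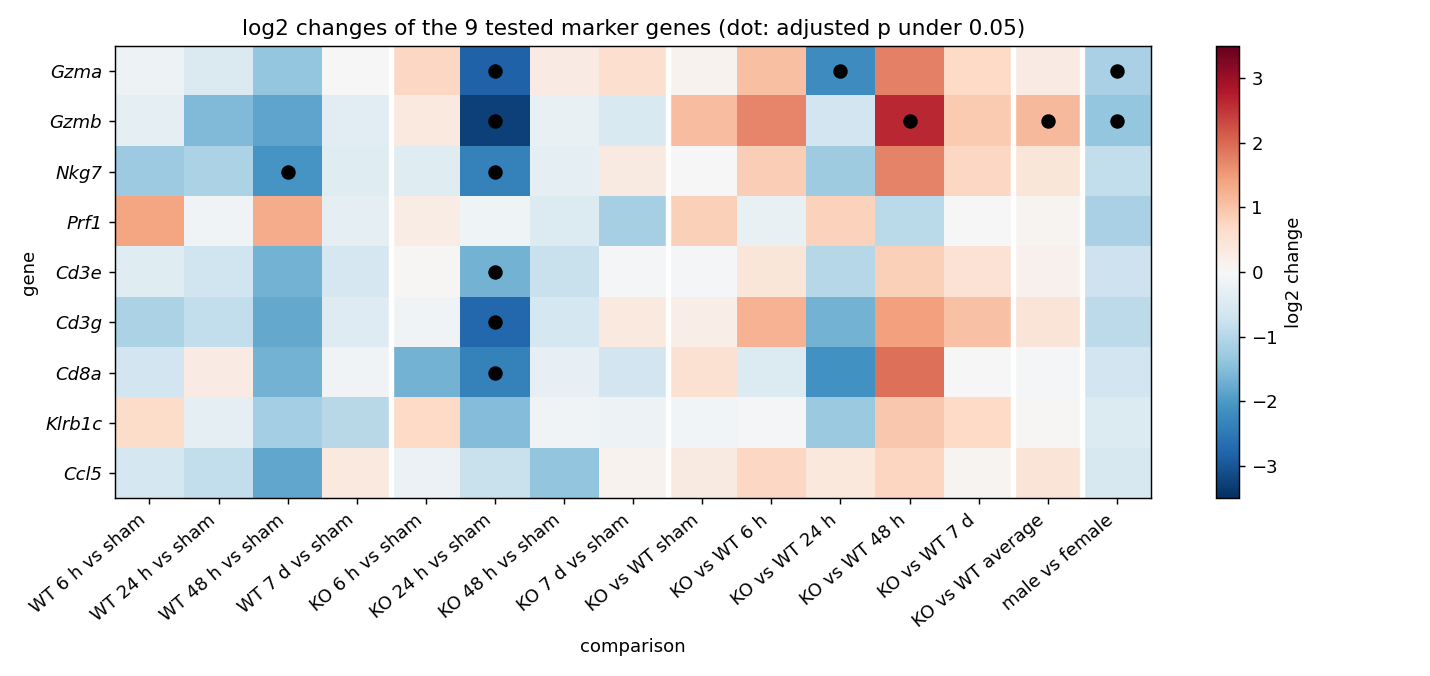
Log2 change (colour) of each of the 9 tested genes (rows) in 15 comparisons (columns), from edgeR with groups and sex in the model. A dot marks an adjusted p under 0.05. The column of KO 24 h against KO sham holds 6 dots, and Prf1 has none in any column.

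The genotypes were then compared at each stage. In sham livers no marker was called, where 0.276% of all genes were called in either direction, and the only marker with an unadjusted p under 0.05 was Gzmb, at 1.07. At 6 h none was called, where 0.116% of all genes were, and again only Gzmb had an unadjusted p under 0.05, at 1.71. There Gzma stood at 0.672, 0.419 and 0.350 CPM in KO and at 0.185, 0.265 and 0.244 CPM in WT livers, all males. Gzma and Cd3g were higher in KO without overlap, as were 9.19% of all genes. Their changes of 1.05 and 1.22 had edgeR adjusted p = 0.582 and 0.578. At 7 d none was called, where 0.0450% of all genes were.

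At 24 h Gzma was lower in KO, where 7.50% of all genes were called lower. Its WT 24 h values were 0.132, 0.278 and 0.305 CPM against 0.0352, 0, 0 and 0.251 CPM in KO, and the difference was -2.19 (SE 0.70, edgeR adjusted p = 0.0283, n = 4 and 3). The call was lost without WT 24 h replicate 3 (-1.78) and without KO 24 h replicate 2 (-1.83) or 3 (-1.93). Cd8a stood at 0.291, 0.195 and 0.153 CPM in WT and at 0.141, 0.0295, 0 and 0.0418 CPM in KO, which did not overlap, as for 5.08% of all genes in that direction. Its difference of -2.12 (SE 0.86) missed the threshold (edgeR adjusted p = 0.0783). Cd3g differed by -1.65 (edgeR adjusted p = 0.109). Without the 3 livers set apart above 3 markers were called, among them Cd3g (-2.70) and Cd8a (-3.20) but not Gzma (-1.45). Without KO 24 h replicate 1 alone 4 were called. The share of all genes called in these 2 fits is not given here, so these counts have no background beside them. Among the other lists 9 of 12 endothelial genes, 3 of 12 Kupffer cell genes and 2 of 12 pan-leukocyte genes were lower in KO, and none of 16 T cell receptor genes was called.

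At 48 h the differences pointed the opposite way, with 8 of 9 above 0 and a median of 1.43 beside -0.01 for all genes. In males alone, with 8 genes tested, the median was 0.44 and 7 were above 0, and it was 1.13 without KO 48 h replicate 4, the only female of its group. Gzmb was higher in KO, where 0.161% of all genes were called higher. Its KO 48 h values were 0.318, 0.0749, 0.138 and 1.25 CPM against 0.0327 to 0.0916 CPM in WT, and the difference was 2.63 (SE 0.61, edgeR adjusted p = 0.0492, n = 4 and 4). Replicate 4 stood far above the other 3, and replicate 2 lay within the WT range. Without replicate 4 the difference was 1.93 and in males alone 1.35, neither past the threshold. The call was also lost without WT 48 h replicate 1 (2.59), 2 (2.36) or 3 (2.45) and without KO 48 h replicate 1 (2.57) or 3 (2.85), and without the 3 livers (2.47).

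KO 48 h replicate 4 had the highest value of the group for 10 of the 10 genes. Its Gzma stood at 1.14 CPM against at most 0.379 CPM in the 3 males, and its Ncr1 at 0.327 CPM, or 12 counts, was the highest of all libraries. Its Ptprc of 9.70 CPM was also the highest of all libraries, and its sums of 10.5 CPM for B cell and 703 CPM for Kupffer cell genes were the highest of its group. Nkg7 stood at 0.375, 0.449, 0.275 and 0.845 CPM in the KO 48 h livers, all above the highest WT 48 h value of 0.196 CPM, as were 3.45% of all genes in that direction, and its difference of 1.74 had edgeR adjusted p = 0.219. Gzma differed by 1.76 (0.177). No gene of the other lists was called in this comparison.

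Averaged over the 5 stages, Gzmb was higher in KO by 1.13 (SE 0.30, edgeR adjusted p = 0.0371), where 2.02% of all genes were called higher. The call was lost in 22 of 44 alternatives, among them males alone (0.86), no sex term, the fit without the 3 livers and the fit without KO 48 h replicate 4 (1.0). The average runs over stages at which the difference was 1.07, 1.71, -0.66, 2.63 and 0.92. Ptprc differed by 0.30 (edgeR adjusted p = 0.578).

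Whether the change from sham differed between the genotypes was tested by interaction terms, and no marker passed the threshold at any stage by edgeR. At 24 h, where 8.47% of all genes were called, 3 markers had an unadjusted p under 0.05. They were Gzma (-2.32, adjusted p = 0.0793), Cd8a (-2.65, 0.0996) and Cd3g (-1.89, 0.169). Without KO 24 h replicate 1, Cd3g at -3.18 and Cd8a at -3.51 were among 3 genes called, and without the 3 livers 3 were called. These counts, too, stand without the share of all genes called in the same fits. Without KO 24 h replicate 4, the only liver of its group with more than 1 Gzma read, the term for Gzma was -4.21 and was called. At 6 h, 48 h and 7 d, 0% of all genes were called, and 0, 2 and 0 markers had an unadjusted p under 0.05. The deeper fall of the markers at 24 h in KO than in WT thus did not pass the test of the difference, with all livers included.

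Levels also differed with the sex given in the labels. In the model, Gzma and Gzmb were lower in male livers, where 1.97% of all genes were called lower, and all 9 changes were below 0, with a median of -0.86. Gzmb averaged 0.183 ± 0.157 CPM (SD, n = 23) in males and 0.407 ± 0.361 CPM (SD, n = 14) in females, and the male to female change was -1.36 (SE 0.31, edgeR adjusted p = 0.00699). Gzma averaged 0.263 ± 0.150 CPM in males and 0.539 ± 0.377 CPM in females (-1.13, SE 0.29, edgeR adjusted p = 0.0213). Ranges of the sexes overlapped for both.

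Of the 8 groups that held both sexes, the female mean of Gzmb was higher in 8, and that of Gzma, Nkg7, Cd3e and Cd3g in 7. For Prf1 and Ccl5 it was higher in 6 and for Cd8a, Klrb1c and Ncr1 in 5. The female mean rested on 1 liver in WT 24 h, WT 7 d and KO 48 h, as did the male mean in KO 7 d. In WT 48 h the Gzmb means were close, at 0.0651 CPM in females and 0.0621 CPM in males. How many of all genes show such tallies was not counted. A further 4 genes had an unadjusted p under 0.05, Nkg7, Prf1, Cd3e and Cd3g. Without KO 48 h replicate 4 the changes were -1.11 for Gzmb and -1.0 for Gzma, and neither was called. Gzma also lost its call without KO sham replicate 2 (-1.07) and without KO 7 d replicate 1 (-1.08). Without the 3 livers set apart above, Cd3g was newly called (-0.99, edgeR adjusted p = 0.0277), and Gzma and Gzmb kept their calls. The share of all genes called in that fit is not given here.

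Other leukocyte genes were also lower in males, and their part in the difference was not tested. They were 2 of 12 pan-leukocyte genes, Cd52 (-0.84) and Arhgdib (-0.55), and 4 of 12 Kupffer genes. The pan-leukocyte sum was 81.4 to 185 CPM in males and 91.4 to 246 CPM in females. Ptprc changed by -0.66 (SE 0.32, edgeR adjusted p = 0.321). Of 16 tested T cell receptor genes 1 was lower, Zap70 (-0.88), the kinase downstream of the receptor. Of 8 NK receptor genes 2 were lower, Slamf7 (-1.26), a receptor on NK cells, and Tyrobp (-0.59). Among 10 other effector genes 1 was lower, Ctsc (-0.95), and 1 higher, Lamp1 (0.32).

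The genes also varied together from library to library, apart from Prf1. Over the 37 libraries, the 45 Spearman correlations of log2(CPM + 1) between pairs of the 10 genes ran from -0.02 to 0.82, with a median of 0.57. These points share libraries, groups and sexes, and low counts weaken them. The closest pairs were Nkg7 with Cd3g (0.82), Gzma with Cd3g (0.82) and Gzmb with Cd3g (0.81), each joining a granule gene to a T cell receptor gene. Prf1's 9 correlations ran from -0.02 to 0.30 with a median of 0.11, and the 28 pairs without Prf1 and Ncr1 from 0.25 to 0.82 with a median of 0.65.

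**Figure D4:**
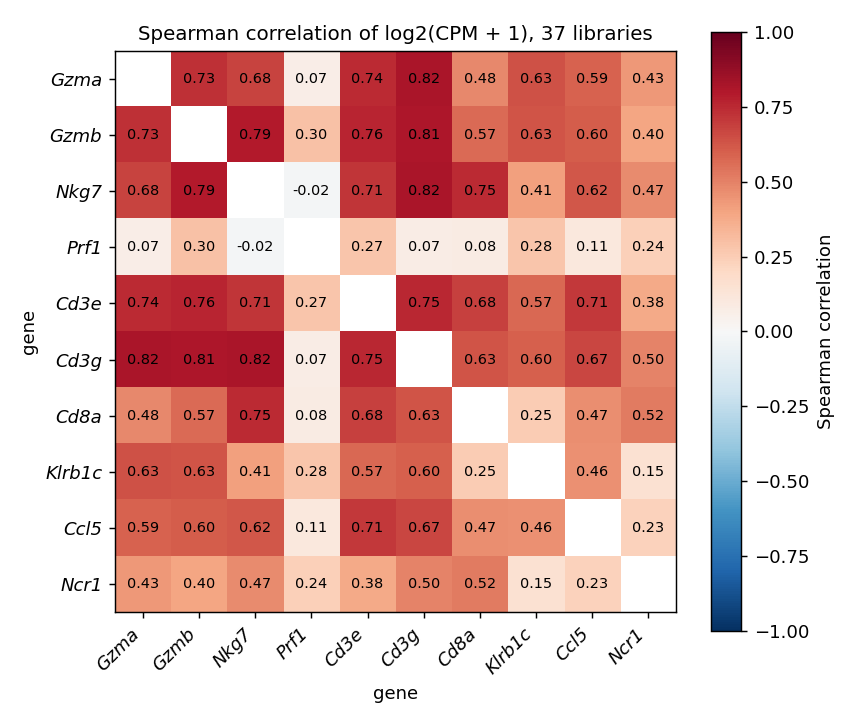
Spearman correlation (colour and printed value) of log2(CPM + 1) between each pair of the 10 genes over 37 libraries. Rows and columns are genes, and the row of Prf1 holds values of at most 0.30, while the pairs without Prf1 and Ncr1 have a median of 0.65.

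Each gene was also set beside the 15555 other genes tested. The genes with the highest mean correlation with the 10 markers were Il2rb (0.67), the beta chain of the receptor for interleukins 2 and 15, Gimap3 (0.66), a GTPase of lymphocytes, Trac (0.63), Cd7 (0.63) and Cd3d (0.62), another CD3 chain. Gzmb was most like Il2rb (0.89) and Trac (0.84), and Gzma was most like Gimap3 (0.85) and Cd7 (0.81). Nkg7 was most like Rac2 (0.87), a GTPase of blood cells, and H2-DMb2 (0.86), which loads class II antigen. Cd3g was most like Ctsw (0.88), a cathepsin of cytotoxic cells, and Lilra5 (0.82), and Cd3e most like Il2rb (0.84) and Ifit3 (0.78), an interferon-induced gene.

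The remaining genes had neighbours of other kinds. Prf1 was most like Ppargc1a (0.66), a coactivator of mitochondrial and fasting genes, and Setbp1 (0.64). Cd8a was most like Hdac11 (0.81) and Pilra (0.81), Klrb1c most like C5ar2 (0.69) and Cd7 (0.68), Ccl5 most like Aspg (0.77) and S100a13 (0.75), and Ncr1 most like Prkcq (0.69) and Irf4 (0.68). These correlations describe the same 37 libraries and were chosen as the highest of many.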

How the data were processed

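RNA was sequenced from 37 mouse livers with a stranded mRNA kit, per the labels' protocols. The authors deposited 1 table of whole-number values per gene and library, taken here to be expected counts, since the submitters' processing notes name STAR 2.5.3a, RSEM 1.3.0 and build GRCm38. The role of each tool, the annotation, the strand setting and any filter are not given in the sources used here. Groups, times and sexes came from the labels, and replicates were numbered in deposit order. No libraries were merged: even the closest pair of replicates, KO 48 h 1 and 2, gave a chi-square per degree of freedom of 34.3 (genes averaging 20 counts or more).

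Counts were tested in R 4.3.3 with edgeR 4.0.16: filterByExpr (15564 genes), TMM scaling and 1 robust quasi-likelihood fit of all 37 libraries on the 10 groups and sex. Benjamini-Hochberg adjustment covered every gene tested, and an adjusted p under 0.05 was called. The SE was taken as the absolute log2 change over the root of the F statistic. Contrasts, 19 in all, set every stage against sham, compared KO with WT by stage and on average, and took in the interactions and sex. The procedure was tested on simulated data, with changes placed only in genes of a higher mean CPM than any marker. That test therefore does not show how well changes are found at the depth of the markers. Exon lengths and positions came from the GENCODE annotation of GRCm38 and promoters from RefSeq.

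All 10 genes were named, with up to 3 called genes of smallest p from each of 17 other lists, the 2 genes most like each marker, the 5 most like all 10, Nox4 and Ptprc. The markers and lists were chosen with earlier results of these data known. Alternatives were RLE scaling, DESeq2 1.42.0, a fit of males alone, one with no sex term, no count filter, no 6 h sham livers, the compared groups alone and each library left out. Leaving out 3 livers together was added after the data were seen. Figures used Python 3.11.15 and matplotlib 3.10.9.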

Additional observations from a re-analysis of the deposited data

Results flagged for a closer look

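Within each group of 4 or 5 livers, the value of each gene was compared with its nearest neighbour in the group, and 9 of 50 such sets held a liver whose gap was a large share of the group's range. Chance flags about 1 in 20 groups of independent, normally distributed values. These sets share livers and hold counts near 0, so the 9 of 50 cannot be set against that rate. Of the 9, 3 belonged to KO 48 h replicate 4, which was high for Cd3e (0.845 CPM, next 0.260), Cd3g (0.818 CPM, next 0.200) and Ncr1 (0.327 CPM, next 0.0499). KO sham replicate 2, a female taken at 48 h, was high for Cd3e (1.38 CPM, next 0.537) and Cd8a (0.889 CPM, next 0.224). WT sham replicate 5, a male taken at 6 h, was low for Cd3g (0.204 CPM, next 0.493). KO 24 h replicate 4 was high for Gzma (0.251 CPM, next 0.0352). Ncr1 was 0 in every other liver of the group where WT 48 h replicate 3 (0.0476 CPM, 2 counts) and KO 24 h replicate 3 (0.0444 CPM, 1 count) stood out, so these 2 rest on 3 counts or fewer.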

How the results depend on the processing

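Of 852 alternative values over the 39 changes with an unadjusted p under 0.05, 751 kept their direction and side of the threshold. Another 58 fell short of it, 43 newly passed it and 0 reversed. Most of the 39 changes were not called in the main fit, and only alternatives of called changes could fall short. The 58 are therefore a larger share of the alternatives that could lose a call than of all 852. Of 393 alternative counts of genes called, 328 were within 1.5 times the main count, including those where both were 0. The count of WT 48 h against sham (1) was 6 by DESeq2, 4 with RLE scaling, 3 with no count filter, 2 with no sex term, 0 in males alone and 3 without the 6 h sham livers, and 0 to 5 with each library left out. That of KO 24 h against sham (6) was 2 in the compared groups alone, where 5 genes could be tested. KO against WT at 24 h (1) gave 0 with no sex term, 2 in males alone, 3 without the 3 livers, 0 in the compared groups alone, where 2 genes could be tested, and 0 to 4 with each library left out. At 48 h (1) it gave 2 by DESeq2, 0 without the 6 h sham livers, with no sex term, without the 3 livers, in males alone and in the compared groups alone, where 3 genes could be tested, and 0 to 2 with each library left out. The average (1) gave 0 with no sex term, in males alone and without the 3 livers, and 0 to 1 with each library left out. The 24 h interaction (0) gave 1 in males alone, 3 without the 3 livers and 0 to 3 with each library left out. Male against female (2) gave 4 by DESeq2 and 0 to 3 with each library left out, and without the 3 livers Cd3g was called besides Gzma and Gzmb. Where no number of testable genes is given, the cause was not tested. The share of all genes called can also change between alternatives, and it is not given beside these counts. Counts of 0 to 128 per gene and library limit the precision of every value. No paired analysis was possible because the labels give no replicate numbers.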
